A study of Arabidopsis thaliana with 5 samples.

Results

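The genes described here are 10 Arabidopsis loci listed by identifier as AP2-type transcription factors related to AtSMOS1: ANT (AT4G37750), AIL1 (AT1G72570), PLT1 (AT3G20840), PLT2 (AT1G51190), AIL5 (AT5G57390), AIL6 (AT5G10510), AIL7 (AT5G65510), AT1G54320, WRI3 (AT1G16060) and WRI4 (AT1G79700). They are 10 of the 33056 genes that the TAIR10.1 annotation places on chromosomes 1 to 5, pseudogenes left out. For each locus, every called peak whose interval reached to within 2 kb of the gene was taken, with its fold enrichment and the position of its summit relative to the transcription start site (TSS). The rule names the genes by identifier and uses no measured value, and the list was drawn up with earlier results of these data known. The label did not hold for AT1G54320, which the list gives as WRI1. In the annotation this identifier is a member of the LEM3/CDC50 family with no AP2 domain in its description, and WRI1 is AT3G54320. AT1G54320 is therefore described under its identifier, 9 of the 10 loci are counted as AP2 genes, and WRI1 is given with the other genes of the class. In the annotation WRI3 carries the symbol ADAP.

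Most AP2-type factors carry a pair of AP2 DNA-binding repeats, whereas members of the larger ERF and DREB families have a single repeat. ANT and the AINTEGUMENTA-LIKE (AIL) or PLETHORA (PLT) genes keep cells in a dividing, meristematic state: ANT promotes organ growth, PLT1 and PLT2 maintain the root stem cell niche, and AIL5, AIL6 and AIL7 act in lateral organs and shoot meristems. The WRINKLED (WRI) genes activate fatty acid synthesis, WRI1 in seeds and WRI3 and WRI4 in other organs. AtSMOS1 (AT2G41710) is the Arabidopsis relative of rice SMOS1, an AP2-type regulator of organ size, and SCL28 is a transcription factor of the GRAS family.

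ChIP-Seq had been performed on whole seedlings of the Columbia accession carrying an SCL28-GFP or an AtSMOS1-GFP transgene, each line in 2 replicates, with precipitation by an antibody against GFP. The sample labels give growth with 16 h of light at 20 °C and dark periods at 18 °C. The study's general methods instead describe continuous light at a higher temperature, so the growth condition is not settled. AtSMOS1-GFP was driven by the AtSMOS1 promoter. For SCL28-GFP the study names the strong RPS5A promoter in one place and the SCL28 promoter in another, so the promoter of the line used for ChIP-Seq is not settled. Total chromatin of wild-type (WT) seedlings without antibody served as the input, in 1 sample. Whole seedlings mix many cell types, and binding confined to a few cells cannot be told apart from weak binding in many.

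The nuclear peaks numbered 488 and 396 in replicates 1 and 2 of SCL28-GFP, 5438 and 6934 in those of AtSMOS1-GFP, and 5695 in the input. The lists hold called peaks and no counts, so they give no depth, although the study describes replicate 2 of SCL28-GFP as the most deeply sequenced of the ChIP libraries. A locus without a peak means only that no peak was called there. The name written inside each replicate 2 list is that of the other protein, whereas of the peaks labelled SCL28-GFP replicate 2, 90.9% overlapped a peak of replicate 1 of the same protein and 62.6% one of AtSMOS1-GFP replicate 1. Of the peaks labelled AtSMOS1-GFP replicate 2, 61.1% overlapped a peak of AtSMOS1-GFP replicate 1 and 4.53% one of SCL28-GFP replicate 1. The labels were kept. The input is a list of called peaks of its own, and 0.497% and 0.534% of the AtSMOS1-GFP peaks overlapped one of its peaks.

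The question put to the lists was whether SCL28-GFP or AtSMOS1-GFP gave peaks at AP2-type relatives of AtSMOS1. No SCL28-GFP peak lay within 2 kb of any of the 10 loci in replicate 1, where 2.71% of all genes had one, or in replicate 2, where 2.27% did. Genes with an SCL28-GFP peak in both replicates made up 2.06% of all genes, so the count of 0 of 10 stood close to the background. AtSMOS1-GFP gave a peak within 2 kb of 2 of the 10 loci, PLT1 and WRI4, in replicate 1, against 24.0% of all genes, and of the same 2 in replicate 2, against 30.3%. Both replicates called a peak near 20.7% of all genes, so the count of 2 of 10 stood near the background and is no result about the AP2 genes as a group. The input had a peak within 2 kb of 2 loci, AIL5 and AIL7, against 26.7% of all genes. No locus had overlapping SCL28-GFP and AtSMOS1-GFP peaks in both replicates, which 1.30% of all genes had. For the 9 AP2 genes alone the counts were the same, and among the 27444 protein-coding genes the shares were 24.5% and 30.8% for AtSMOS1-GFP and 27.9% for the input. No test was run on these counts.

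**Figure D1:**
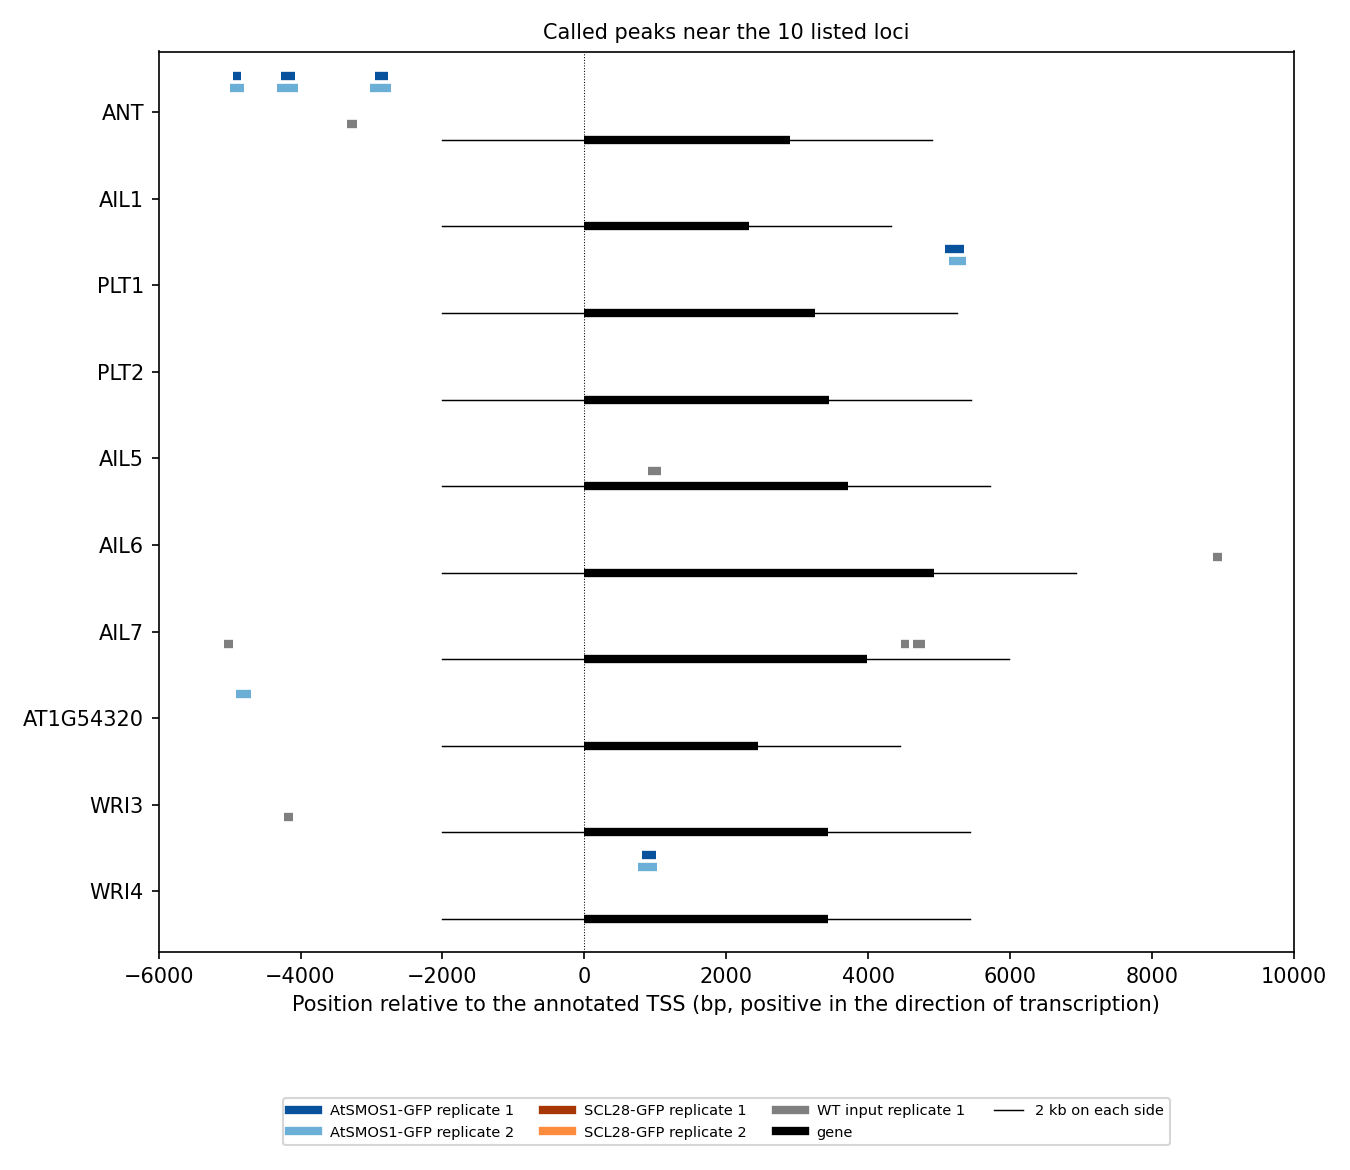
Called peaks near the 10 listed loci, drawn by position relative to the annotated TSS in bp, with each gene as a thick black bar, its 2 kb surroundings as a thin line and peaks coloured by list. AtSMOS1-GFP peaks of both replicates (blue) lay inside WRI4, downstream of PLT1 and upstream of ANT beyond 2 kb, and no SCL28-GFP peak fell in the range drawn.

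WRI4, which activates fatty acid synthesis for the waxes and cutin of stems and flowers in Arabidopsis, was the 1 listed gene with AtSMOS1-GFP peaks inside its body. The gene lies on the minus strand at chr1:29990336-29993766. In replicate 1 the peak spanned chr1:29992759-29992958 with a fold enrichment of 3.02 over the caller's local background and a −log10 q of 3.22. In replicate 2 it spanned chr1:29992744-29993014 with a fold of 3.16 and a −log10 q of 7.05. The fold was therefore 3.09 ± 0.101 (SD, n = 2), and the summits at +915 and +904 bp from the TSS were 11 bp apart. Both summits fell in an intron of WRI4 and in the exon of AT1G09907, a long noncoding RNA gene of 355 bp on the opposite strand, so the site lies in both genes. Of 4 annotated WRI4 transcripts, 1 starts at +708, and the peaks lay downstream of this start too.

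The bases around the replicate 1 summit are shown because this is the 1 AtSMOS1-GFP site within a listed gene. They are given on the strand of WRI4, TAIR10.1 chr1:29992772-29992886, and were shortened to leave out bases annotated as a UTR of WRI4. The stretch holds intron and coding sequence of WRI4 and lies wholly in the exon of AT1G09907. No base is in capitals, because neither motif described below matched.
WRI4: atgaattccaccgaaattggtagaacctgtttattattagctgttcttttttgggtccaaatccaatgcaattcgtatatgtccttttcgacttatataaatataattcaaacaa

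The folds at WRI4 were below the medians of their lists, and 17.0% of the replicate 1 peaks and 41.6% of the replicate 2 peaks had a lower one. The median fold was 3.65 in AtSMOS1-GFP replicate 1 and 3.34 in replicate 2. The nearest input peak was 9869 bp away. The nearest SCL28-GFP peaks were 63515 and 63540 bp away.

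PLT1, a regulator of root stem cells, had its AtSMOS1-GFP peaks beyond its 3′ end and near the edge of the 2 kb window. The gene lies on the plus strand at chr3:7300444-7303693. The replicate 1 peak at chr3:7305529-7305798 began 1836 bp past the gene and had a fold of 3.70 and a −log10 q of 3.94. The replicate 2 peak at chr3:7305580-7305825 began 1887 bp past the gene and had a fold of 3.66 and a −log10 q of 7.20. The 2 folds differed little, at 3.68 ± 0.0267 (SD, n = 2), and stood above 51.5% and 63.4% of the peaks of their lists. The summits were 82 bp apart, at 2055 and 1973 bp past the end of PLT1, so that by its summit 1 of the 2 peaks fell outside 2 kb.

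The bases around the replicate 1 summit are shown because the 2 replicates called the site but another gene lies closer to it. They are given on the plus strand, TAIR10.1 chr3:7305669-7305828, with no motif match.
PLT1: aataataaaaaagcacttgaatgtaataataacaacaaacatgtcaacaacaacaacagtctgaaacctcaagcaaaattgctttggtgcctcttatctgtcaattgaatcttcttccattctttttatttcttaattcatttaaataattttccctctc

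The site is intergenic. AT3G20850 lies between PLT1 and the peaks, and the summits were nearest to NEK5 (AT3G20860), a kinase of the NIMA-related family, whose TSS they preceded by 432 and 514 bp. A peak assigned to its nearest gene alone would thus go to NEK5 and not to PLT1. The nearest SCL28-GFP peaks were 21491 and 21568 bp from PLT1, the shortest distance of the 10 loci, and the nearest input peak was 9848 bp away.

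ANT, which prolongs cell proliferation in growing organs, was the locus just outside the window. On its upstream side, at chr4:17739514-17742407 on the plus strand, both AtSMOS1-GFP replicates called 3 sites between 2 and 5 kb from the gene. At the site nearest to ANT the gap was 2774 and 2720 bp in replicates 1 and 2, the folds were 4.06 and 3.30 (mean 3.68 ± 0.534, SD, n = 2), and the summits at −2874 and −2878 bp were 4 bp apart. The middle site had folds of 3.99 and 4.40, with a −log10 q of 5.55 and 12.8 and summits at −4102 and −4183 bp. The farthest site had folds of 3.77 and 2.95 at −4898 and −4926 bp. The first of these was nearest to ANT, whereas the other two were nearest to AT4G09655, a long noncoding RNA gene at 944 to 1740 bp from the replicate 1 summits. An input peak with a fold of 2.70 lay between the first 2 sites at −3208 bp and overlapped neither.

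The bases around the ANT site closest to the gene are shown because its summits fell nearest to each other of all sites near the listed loci called in both replicates. They are given on the plus strand, TAIR10.1 chr4:17736561-17736720, with no motif match.
ANT: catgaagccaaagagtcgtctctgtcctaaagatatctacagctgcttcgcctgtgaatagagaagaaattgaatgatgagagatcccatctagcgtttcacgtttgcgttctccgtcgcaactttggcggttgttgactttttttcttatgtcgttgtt

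The remaining ANT/AIL genes had no ChIP peak within 2 kb. AIL5, on the minus strand at chr5:23252989-23256703, held an input peak in its coding sequence at chr5:23255627-23255809, with a fold of 3.50 and a summit at +971 bp, and its nearest AtSMOS1-GFP peaks were 26558 and 24571 bp away. AIL7, on the plus strand at chr5:26185593-26189571, had 2 input peaks past its 3′ end with folds of 3.66 and 3.32 and gaps of 480 and 649 bp. Both lay in the coding sequence of the next gene, AT5G65520. The nearest AtSMOS1-GFP peaks of AIL7 were 7869 and 7816 bp away. These input peaks came from WT chromatin without antibody.

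AIL1, AIL6 and PLT2 had no peak of any list within 2 kb. AIL1 had AtSMOS1-GFP peaks at 5337 and 5207 bp and was the most distant of the loci from SCL28-GFP peaks, at 129107 and 183855 bp. AIL6 had an input peak 3929 bp past its end with a fold of 3.30 and its nearest AtSMOS1-GFP peaks at 14736 and 14742 bp. PLT2, which acts with PLT1 in the root, had AtSMOS1-GFP peaks at 24957 and 24961 bp and an input peak at 6178 bp.

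WRI3 had no ChIP peak within 5 kb, with AtSMOS1-GFP peaks at 6493 and 6350 bp and an input peak 4112 bp upstream, inside Hsp70b. AT1G54320 had an AtSMOS1-GFP peak in replicate 2 alone, 4698 bp upstream with a fold of 3.03 and nearest to ICDH (AT1G54340). In replicate 1 the nearest peak was 31234 bp away, so this site rests on 1 list.

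**Figure D2:**
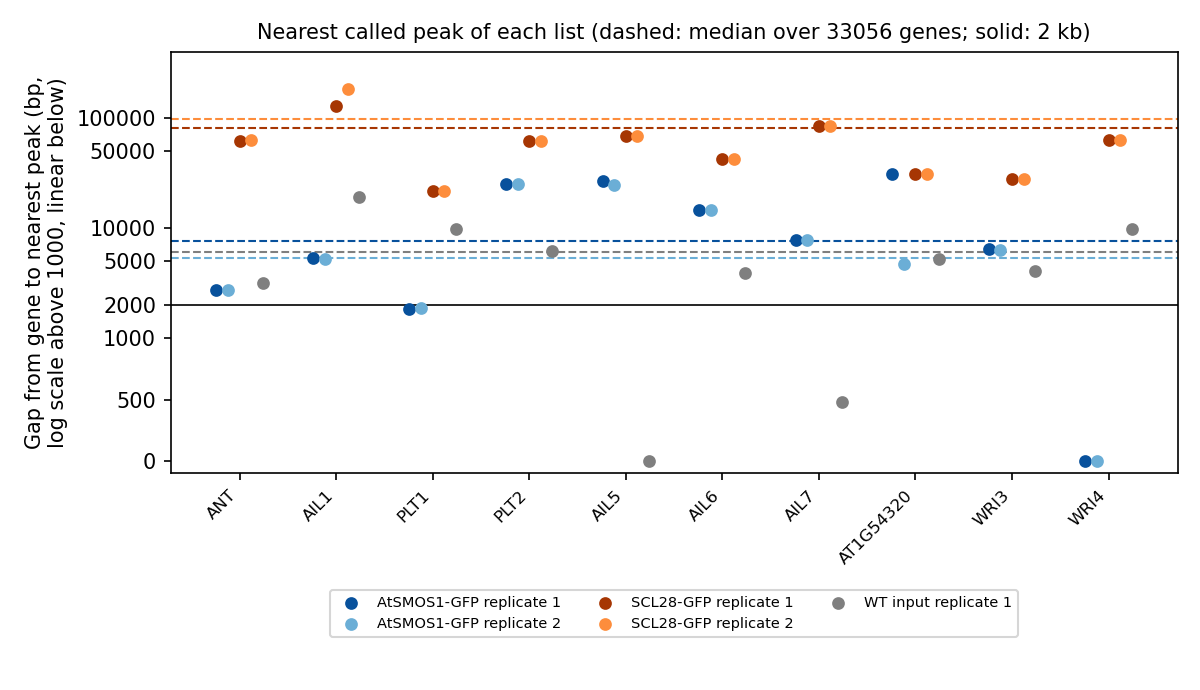
Gap in bp from each listed locus to the nearest called peak of each list, on an axis that is linear below 1000 bp and logarithmic above, with dashed lines at the medians over 33056 genes and a solid line at 2 kb. AtSMOS1-GFP peaks touched WRI4 alone and all SCL28-GFP gaps were at least 21491 bp.

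Over the 10 loci the gap to the nearest SCL28-GFP peak had a median of 61751 bp in replicate 1 and 62307 bp in replicate 2. Over all genes the medians were 80425 and 96852 bp. For AtSMOS1-GFP the medians were 7181 and 5778 bp at the listed loci and 7564 and 5410 bp over all genes. For the input they were 4663 bp at the listed loci and 6102 bp over all genes. The order of the loci by AtSMOS1-GFP gap was WRI4, PLT1 and ANT in both replicates, and the loci behind them lay at least 4698 bp from a peak of either list. The listed genes thus lay about as far from AtSMOS1-GFP peaks as genes in general, in a description without a test.

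The counts grew with the window, as those of all genes did. Within 500 bp, AtSMOS1-GFP peaks reached 1 of 10 loci (WRI4) in each replicate, against 14.7% and 19.5% of all genes. Within 5 kb they reached 3 loci in replicate 1 (ANT, PLT1, WRI4) and 4 in replicate 2, with AT1G54320 added, against 39.8% and 48.1%. Within 10 kb they reached 6 and 7 loci, against 57.8% and 66.6%. SCL28-GFP peaks reached 0 loci within 10 kb in either replicate, where 9.08% and 7.65% of all genes had one. The input reached 9 loci within 10 kb, against 65.3%.

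**Figure D3:**
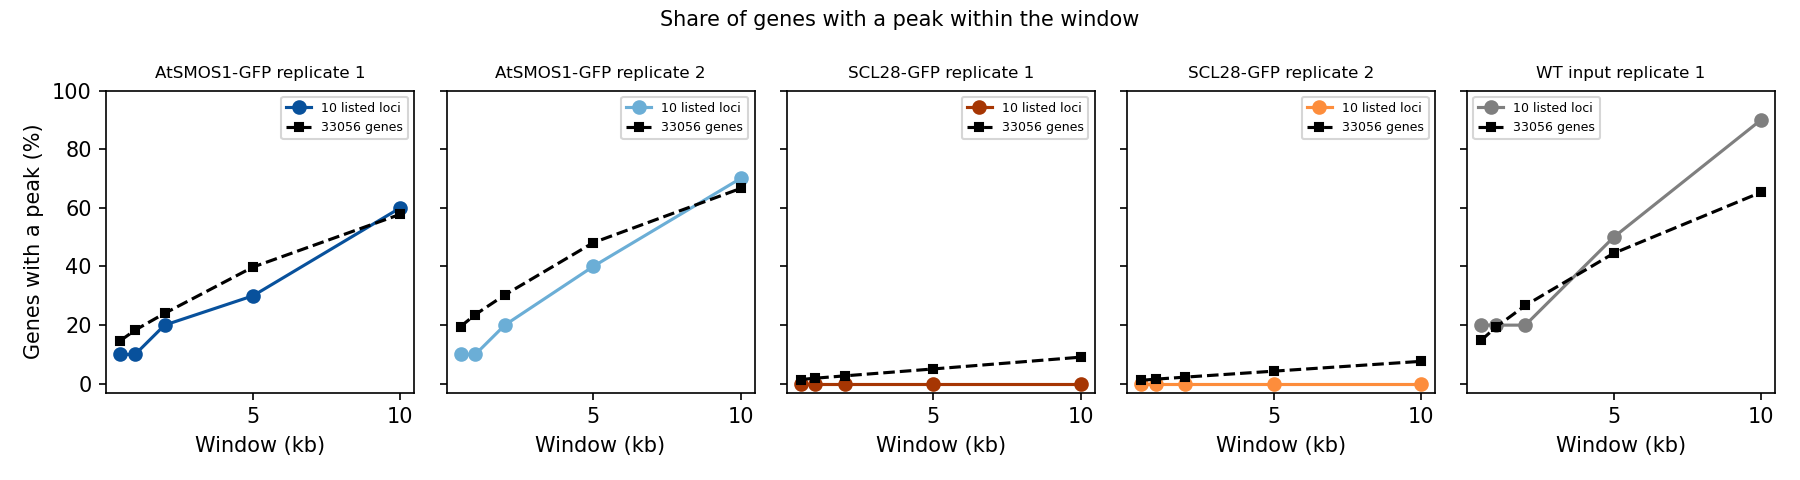
Percentage of genes with a called peak within 500 bp to 10 kb (x axis, window in kb), for the 10 listed loci (circles) and all 33056 genes (squares), with 1 panel per list. The listed loci stayed at 0% for SCL28-GFP, and for AtSMOS1-GFP were at 20.0% within 2 kb against 24.0% and 30.3% of all genes.

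No AtSMOS1-GFP site called in both replicates had its summit within 1 kb upstream of the TSS of a listed locus. The share of all genes with such a summit is not given here, so this count is no result about the listed loci. Counted against the TSS of any gene, 2 of the 5 sites near the listed loci lay within 1 kb upstream in both replicates, the PLT1 site at NEK5 and the farthest ANT site at AT4G09655. By the same measure 47.5% and 47.3% of all AtSMOS1-GFP summits did, so the 2 of 5 stood near the background. The 5 sites near the listed loci that both replicates called were intronic (WRI4), downstream (PLT1) or more than 2 kb upstream (ANT). Their folds ranged from 2.95 to 4.40, and none of the 5 was overlapped by an input or SCL28-GFP peak. Of all AtSMOS1-GFP peaks, 0.497% and 0.534% overlapped an input peak, and 4.53% of those of replicate 2 overlapped one of SCL28-GFP replicate 1. The lack of overlap thus stood near the background. The study gives the input as the control of its peak calling, which by itself disfavours calls at input peaks. With 2 replicates per protein no permutation over samples could reach 0.05, and none was run.

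**Figure D4:**
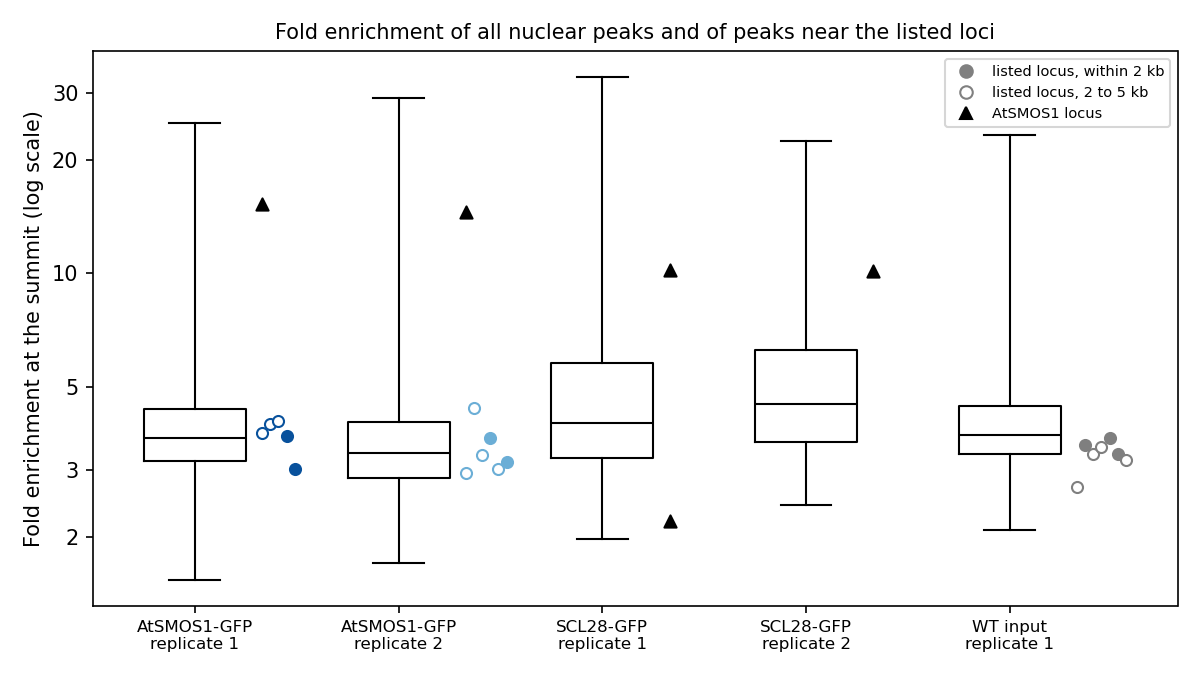
Fold enrichment at the summit on a logarithmic axis, for all nuclear peaks of each list (boxes with medians and quartiles, whiskers to the lowest and highest value), for peaks within 2 kb of a listed locus (filled circles) or at 2 to 5 kb (open circles), and for the AtSMOS1 locus (triangles). Peaks near listed loci stayed below 4.5. The AtSMOS1 locus reached 15.2 in the AtSMOS1-GFP line, which carries a transgene of that gene.

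The bases near the loci were searched for 2 motifs on both strands. The first was the motif that the study gives for targets common to both proteins, searched as an exact match. It matched within 2 kb of 1 of the 10 loci, AIL5, where 5.46% of all genes had a match, and within 1 kb upstream of none, where 0.938% of all genes had one. It is shown because it is the only match near a listed locus. The AIL5 match lies in the coding sequence at about +2910 bp from the TSS, on the strand of the gene, TAIR10.1 chr5:23253773-23253812, with the 12 matching bases in capitals.
AIL5: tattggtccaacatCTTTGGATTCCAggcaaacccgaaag

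No peak of any list covered this match. In the 200 bp centred on summits the same motif was found at 20.9% and 25.3% of the SCL28-GFP peaks, 1.05% and 0.923% of the AtSMOS1-GFP peaks and 0.0702% of the input peaks. It was in none of the printed AtSMOS1-GFP sites at WRI4, PLT1 or ANT.

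The second was the AW-box, CNTNGNNNNNNNCG, the element known to be bound by WRI1 in Arabidopsis. It is permissive, since 94.9% of all genes had a match within 2 kb and so did 10 of 10 listed loci, with 1 match at ANT and AIL1 and 7 at PLT2. Within 1 kb upstream, 36.1% of all genes had one, and so did 3 of the 10 loci, PLT1, PLT2 and AT1G54320. No AW-box of a listed locus lay in a peak of any list. The share of all genes with an AW-box in a peak is not given here, so this is no result about the listed loci. At summits the AW-box was found in 10.4% and 10.3% of the AtSMOS1-GFP peaks, 10.9% and 10.6% of the SCL28-GFP peaks and 25.4% of the input peaks. These matches are descriptions of letters and not binding sites.

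Among the 9 other genes of the AP2 class, the AtSMOS1 locus itself differed from the listed loci. Its gene lies on the minus strand at chr2:17400022-17403050. SCL28-GFP peaks with folds of 10.2 and 10.1 (mean 10.1 ± 0.0511, SD, n = 2) had summits at −281 and −275 bp from its TSS, and 95.7% and 95.5% of the peaks of their lists had a lower fold. AtSMOS1-GFP peaks there had folds of 15.2 and 14.5 with summits at −236 and −251 bp, 24 to 45 bp from those of SCL28-GFP. The AtSMOS1-GFP peaks were 4323 and 4458 bp wide and covered 100% of the gene, whereas the median width in those lists was 197 and 286 bp. The AtSMOS1-GFP line carries a transgene of this gene with its promoter. The study describes the transgene as the whole genomic region of AtSMOS1, of about the length that these AtSMOS1-GFP peaks span. Its part in the peaks was not tested and cannot be told apart from binding at the gene. The SCL28-GFP peaks called in both replicates lay upstream, in the space between AtSMOS1 and EMB2654 (AT2G41720), whose 3′ end is at 17403603. A further SCL28-GFP peak, called in replicate 1 alone, lay in the gene with a summit at +1451 bp and covered 16.1% of it.

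The bases under both proteins' summits at AtSMOS1 are shown for contrast with the sites of the listed loci. They are given on the strand of the gene, TAIR10.1 chr2:17403167-17403406, with an AW-box match in capitals and no match to the common motif.
AtSMOS1: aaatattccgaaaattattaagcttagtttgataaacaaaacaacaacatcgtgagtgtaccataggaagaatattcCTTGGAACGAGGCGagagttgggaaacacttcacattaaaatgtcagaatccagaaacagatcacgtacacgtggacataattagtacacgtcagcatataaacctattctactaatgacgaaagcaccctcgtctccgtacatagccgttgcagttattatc

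WRI1 had no peak of any list within 5 kb, and BBM, the AIL gene known for inducing embryos, had none within 2 kb. The AP2/TOE group, floral and flowering-time regulators that microRNA miR172 targets, had AtSMOS1-GFP peaks within 2 kb of 3 of 6 genes in both replicates, AP2, TOE2 and SMZ, against 20.7% of all genes. In replicate 2, TOE1 and SNZ were added, for 5 of 6, against 30.3% of all genes. The ANT/AIL group with BBM had 1 of 8 (PLT1) and the WRI group with WRI1 had 1 of 3 (WRI4) in each replicate, against 24.0% and 30.3%. The difference between these groups was not tested, and the input also had a peak near 3 of the 6 AP2/TOE genes, AP2, SMZ and SNZ, against 26.7% of all genes.

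At AP2 the AtSMOS1-GFP sites called in both replicates were low near the TSS, with folds of 2.45 and 2.60 at +128 and +57 bp, and 2.79 and 3.33 at −1774 and −1730 bp. Farther upstream the folds were 6.58 and 4.94 at −2724 and −2865 bp, which is the highest pair of AtSMOS1-GFP folds within 5 kb of any AP2-class gene other than AtSMOS1. The gene nearest to these summits was AT4G09445, at 1444 and 1303 bp, and not AP2. Another site had folds of 5.35 and 4.04 at −4774 and −4823 bp, in an exon of AT4G09415. At TOE2 the summits were at −3 and +67 bp with folds of 4.44 and 2.67. At SMZ they were at −1694 and −1798 bp with folds of 4.06 and 2.33. Each of these pairs differed more between replicates than the pairs at WRI4 and PLT1. For the AP2 pair nearest to the TSS the margin was slight, with an SD of 0.112 against 0.101 at WRI4.

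TOE1 was the 1 gene of the class besides AtSMOS1 with SCL28-GFP peaks within 2 kb. Both SCL28-GFP replicates thus called a peak near 2 of the 9 other AP2-class genes, against 2.06% of all genes, without a test. The SCL28-GFP peaks at TOE1 had folds of 3.06 and 3.43, above 18.6% and 19.7% of the peaks of their lists. They began 312 and 408 bp past the gene, with summits 513 and 496 bp from its end. AtSMOS1-GFP replicate 2 called a peak with a fold of 3.98 at the 3′ end of TOE1, which did not overlap the SCL28-GFP peaks, and another with a fold of 2.62 lay 1298 bp past the gene. Replicate 1 called none within 2 kb.

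**Figure D5:**
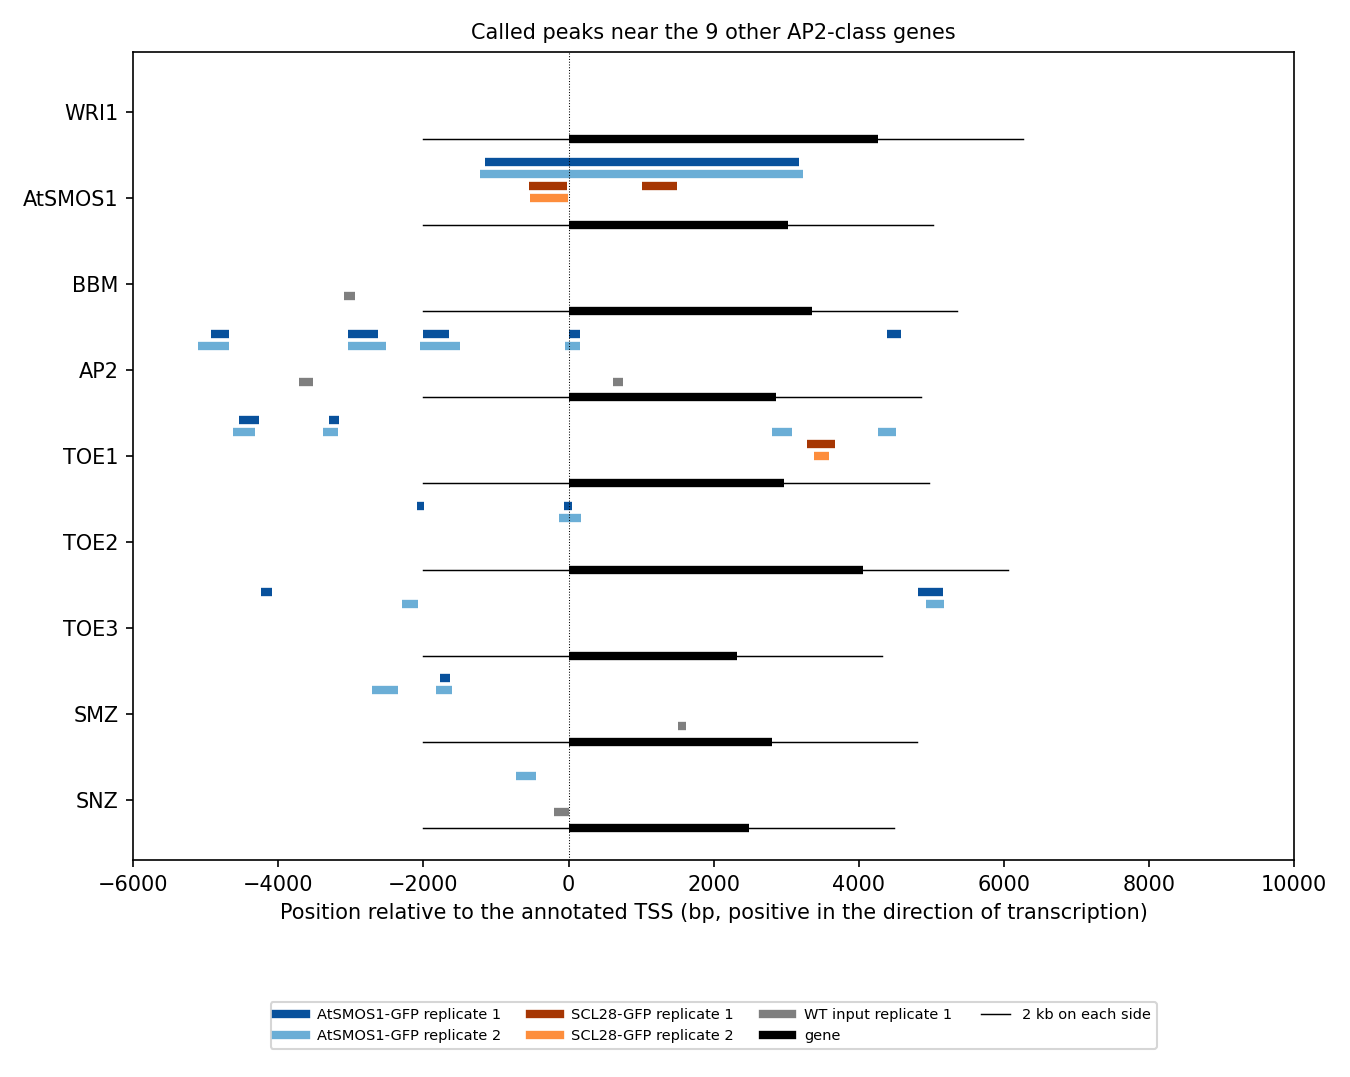
Called peaks near the 9 other AP2-class genes, by position relative to the annotated TSS in bp, drawn as for the listed loci. AtSMOS1-GFP peaks covered the whole AtSMOS1 gene with SCL28-GFP peaks at its upstream end, and SCL28-GFP peaks otherwise lay near TOE1 alone.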

How the data were processed

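ChIP-Seq peak lists of 4 ChIP samples and 1 input sample were analysed. Per the labels and the study's methods, single-end reads were trimmed by the authors (Trimmomatic 0.38), mapped to TAIR10 (Bowtie2 2.3.5), handled with SAMtools 1.9 and passed to MACS2 2.2.7.1, which called peaks per sample with a q-value limit of 0.05. The study's texts differ on the aligner settings, the fragment size and narrow or broad peaks, and the control for the input's own list is not given in the sources used here. The deposited fold enrichment is a ratio at the summit over the caller's local background, and the −log10 p and −log10 q and the score derived from q are as the authors' caller deposited them. The p-value and score were not used. Peak calling of this kind depends on depth and on the local background, so folds were compared within a list and set side by side across lists.

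Coordinates were written 1-based and fitted the chromosome lengths of TAIR10.1, whose RefSeq annotation gave genes, names and bases. Organelle peaks were left out (184 of the input, at most 1 in any ChIP list), and so were 4843 pseudogenes. A locus was called when a peak interval lay within 2000 bp. Peaks overlapped when they shared 1 bp. An equal distance at WRI4 and AT1G09907 was given to WRI4. No gap was tested, since a list of peaks has no variance per gene. Python 3.11.15 with numpy 2.4.6 and matplotlib 3.10.9 was used, and the functions were tested on simulated data. Named were all 10 listed loci, a fixed list of 9 other AP2-class genes and genes nearer to a peak than a listed locus. The members and lists were chosen with earlier results of these data known. Alternatives were windows of 1 and 5 kb, summits in place of intervals, a −log10 q of at least 5, the nearest gene, AT3G54320 in place of AT1G54320, removal of peaks overlapping the input, a 50% overlap between both peaks, promoters of 500 bp and 2 kb, peak midpoints and each replicate left out. The study calls the replicates biological.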

Additional observations from a re-analysis of the deposited data

How the results depend on the processing

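The count of listed loci with an AtSMOS1-GFP peak in both replicates was 2 (PLT1 and WRI4). It fell to 1 (WRI4) with a window of 1 kb, with the summit in place of the interval and with peaks given to their nearest gene only, and to 0 with a −log10 q of at least 5, because the replicate 1 peaks at both loci were under that limit. It was 3 within 5 kb and 2 under the other alternatives, with either replicate left out among them (2 to 2). The count of loci with an input peak was 2 and moved to 5 within 5 kb, to 1 with the nearest gene only and to 0 with a −log10 q of at least 5. Within 1 kb, 18.3% and 23.6% of all genes had an AtSMOS1-GFP peak in replicates 1 and 2. Within 5 kb, 39.8% and 48.1% did, and 44.5% had an input peak. A −log10 q of at least 5 was reached by 2077 of 5438 and 4461 of 6934 AtSMOS1-GFP peaks and 2581 of 5695 input peaks. The share of all genes is not given here under the summit, nearest-gene and q rules. Those counts are therefore no result about the listed loci. The counts for SCL28-GFP, for overlapping peaks of both proteins and for AtSMOS1-GFP summits within 1 kb upstream stayed at 0 under all 9, 10 and 6 alternatives run, and with a replicate left out they ranged from 0 to 0. The distance between SCL28-GFP and AtSMOS1-GFP summits at listed loci gave no value, because no listed locus had an SCL28-GFP peak. No paired analysis was possible because the counts come from lists of called peaks and from no test. The lists limit what can be said: they hold no reads, no value at loci without a peak and 2 replicates per protein, with 488 and 396 peaks for SCL28-GFP against 5438 and 6934 for AtSMOS1-GFP.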

Other observations

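TOE3, an AP2/TOE gene, had an AtSMOS1-GFP site in both replicates just beyond the 2 kb window, past its 3′ end, with folds of 3.80 and 3.73, gaps of 2499 and 2608 bp and summits 113 bp apart. These summits were nearest to another gene, EPS1 (AT5G67160), at −62 and +51 bp from its TSS. SNZ had an AtSMOS1-GFP peak in replicate 2 alone, with a fold of 1.91 and a summit at −453 bp. It also had an input peak at −91 bp, with a fold of 4.58 in the input's own list. Upstream of TOE1 both AtSMOS1-GFP replicates called a site with folds of 3.67 and 2.99 at −3232 and −3279 bp and another at −4456 and −4418 bp. In SMZ replicate 2 alone called a second upstream peak, with a fold of 4.97 at −2452 bp. BBM had an input peak 2937 bp away and no ChIP peak within 5 kb.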
